A study of Rattus norvegicus with 2 samples.

Results

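The Hox clusters of vertebrates hold miRNA genes as well as homeobox genes, and miR-10, miR-196 and miR-615 are encoded there. Rows for these miRNAs were taken by name from both arrays, keeping non-control, non-star probes of miR-10a, miR-10b, miR-196a, miR-196b, miR-196c and miR-615 with or without an arm suffix. That gave 6 of the 350 miRNAs on the array: miR-10a-5p, miR-10a-3p, miR-10b, miR-196a, miR-196b and miR-196c. They are read by 16 probes on 120 spots per array, 20 spots for each miRNA. No row carries the name miR-615, which is not analysed here.

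The study compared squamous cell carcinoma of the tongue with normal tongue in male Sprague-Dawley rats. Of 40 rats aged 6 to 7 weeks, 20 drank 4NQO, a carcinogen that forms DNA adducts, at 0.02 g/l, and 20 drank distilled water. Tissue was taken at the end of week 36, tumours from the 4NQO arm and normal tongue from the water arm, with RNA extracts made of 7 tumours and of 7 normal tissues. The data are 2 Cy3-labelled Agilent miRNA arrays, 1 labelled tumour and 1 labelled normal. The labels do not state whether RNA was pooled, and the labelling kit they name is one for mRNA. A single array per group allows no test between groups, so errors below describe only how spots scatter on the same array.

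Hox proteins set position along the body axis, and Hox genes of higher number act in more posterior tissue. Both miR-10 and miR-196 are known to bind Hox mRNAs. miR-10b is also known from work on metastasis of breast carcinoma cells, and miR-196 is often reported as raised in human oral carcinoma. By RefSeq's rat gene annotation (GRCr8), Mir10a lies between Hoxb5 and Hoxb4, and Mir10b lies within the span of Hoxd4 with Hoxd3 as its next neighbour. Mir196a lies between Hoxc10 and Hoxc9, Mir196b between Hoxa9 and Hoxa10, and Mir196c between Hoxb13 and Hoxb9. All 6 members matched a mature RefSeq miRNA. The array design names another build, so no coordinates are given.

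The mature sequences show how alike the members are, which matters for an assay that tells them apart by hybridisation. They are printed 5′ to 3′ from RefSeq (GRCr8), with the seed, bases 2 to 8, in capitals.
miR-10a-5p: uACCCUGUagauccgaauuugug
miR-10b: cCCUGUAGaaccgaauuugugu
miR-10a-3p: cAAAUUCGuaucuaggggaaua
miR-196a: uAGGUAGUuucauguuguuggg
miR-196b: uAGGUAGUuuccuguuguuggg
miR-196c: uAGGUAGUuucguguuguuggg
The 3 miR-196 members share the seed AGGUAGU and differ from each other at 1 of 22 bases. Counted from the 5′ end of miR-196a, the change is A12C in miR-196b and A12G in miR-196c. Aligned without gaps, miR-10a-5p and miR-10b differ at 1 of 21 bases, U12A counted from the 5′ end of miR-10a-5p. As annotated, miR-10b starts 2 bases further in than miR-10a-5p, so their seeds are listed as CCUGUAG and ACCCUGU. In the miR-10b hairpin the 2 bases before the annotated start are UA, the same letters that open miR-10a-5p.

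The probes are complementary to the mature strands. Those of the miR-10 pair are printed because detection turned on them, with the base that differs between miR-10a-5p and miR-10b in capitals.
miR-10b, 22 bases: acacaaattcggTtctacaggg
miR-10b, 21 bases: acacaaattcggTtctacagg
miR-10a-5p, 22 bases: cacaaattcggAtctacagggt
miR-10a-5p, 21 bases: cacaaattcggAtctacaggg
The longer miR-10b probe covers bases 1 to 22 of the mature strand and the shorter one bases 2 to 22. The probes of miR-10a-5p cover bases 2 to 23 and 3 to 23. The probes of miR-196a, miR-196b and miR-196c are likewise set apart by 1 base, shown here for a probe of each.
miR-196a, 21 bases: cccaacaacaTgaaactacct
miR-196b, 20 bases: cccaacaacaGgaaactacc
miR-196c, 21 bases: cccaacaacaCgaaactacct

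Values are processed signals in intensity units, where a spot's mean had a fitted background surface subtracted, so spots without signal scatter around 0. A probe was called detected where more than 50% of its spots, without those the software marked as outliers, were well above background by the software's flag. This held for 175 of 938 probes on the tumour-labelled array and 149 on the normal-labelled array, the dimmest at 18.3 and 18.2 units. The 672 negative control spots had a mean of 1.21 units (SD 7.28) and 2.64 units (SD 6.31) respectively. No spot was saturated. Some well known miRNAs ran against the labels: miR-21 was 9.60-fold lower and muscle miR-1 was 13.2-fold higher on the tumour-labelled array. The directions given below therefore rest on the labels being right.

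Of the 6 Hox cluster miRNAs, only miR-10b was detected, and it was detected on both arrays. The other 5, miR-10a-5p, miR-10a-3p, miR-196a, miR-196b and miR-196c, were not well above background on either array. Over all 350 miRNAs, 29.7% were detected on the tumour-labelled array, 25.1% on the normal-labelled array and 69.4% on neither. The share of members detected, 1 of 6, thus lay below that of all miRNAs, in a set too small for a comparison. The software's own gene-level flag gave the same split, with miR-10b present on both arrays and the other 5 on neither.

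**Figure D1:**
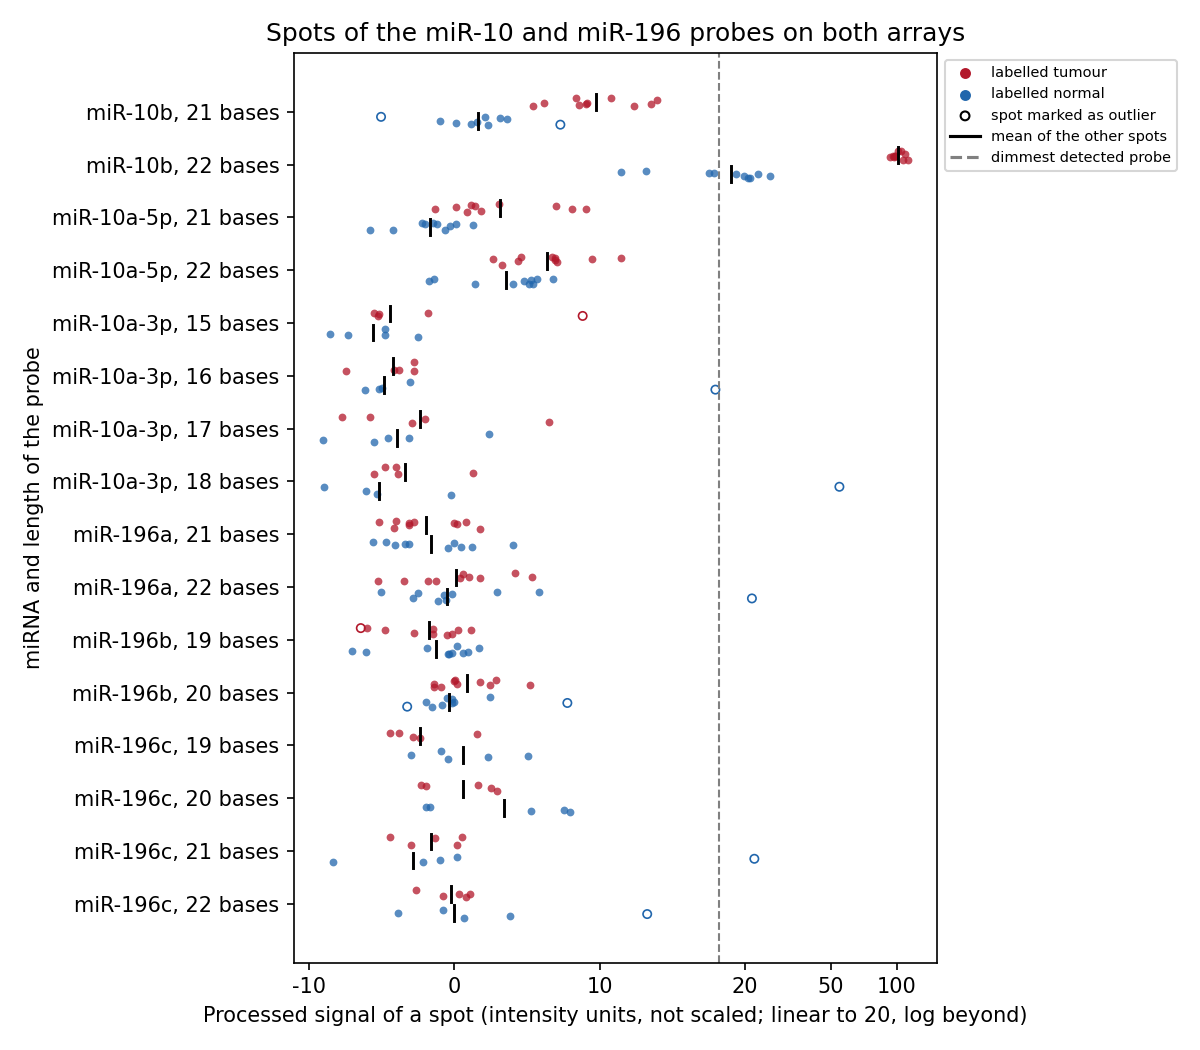
Processed signal of every spot of the 16 probes of Hox cluster miRNAs (x axis, intensity units, linear up to 20 and log beyond), by miRNA and probe length (y axis), for both arrays. Points are spots, open points are spots marked as outliers, black ticks are means of the other spots, and the dashed line is the dimmest detected probe (18.3 units); only the 22-base probe of miR-10b has means above it, at 101.8 and 19.1 units.

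miR-10b was higher on the tumour-labelled array. On its 22-base probe the 10 spots of that array ran from 93.0 to 112.9 units with a median of 100.01 (mean 101.8, SD 6.31). On the normal-labelled array the 10 spots of the same probe ran from 11.5 to 26.2 units with a median of 19.7 (mean 19.1, SD 4.36). Before scaling, the spots of the arrays did not overlap: the lowest on the tumour-labelled array was above the highest on the normal-labelled array. The share of all probes whose spots do not overlap was not counted, so this cannot be called particular to miR-10b. Probes detected on both arrays were brighter on the tumour-labelled array in general, by 1.89-fold, which itself favours such separation before scaling. Spots of the same array repeat the same sample, so their separation is no test between groups. All 10 spots were well above background on the first array and 8 of 10 on the second, where the probe mean lay just above the dimmest detected probe. The spot CV was 6.20% and 22.9%, so most of the error in the ratio comes from the normal-labelled array.

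The 21-base probe of miR-10b, which lacks the last base at the 3′ end, did not count as detected on either array. Its 10 spots on the tumour-labelled array ran from 5.38 to 13.98 units (mean 9.75, SD 2.90). On the normal-labelled array its 8 unmarked spots ran from -0.99 to 3.62 units (mean 1.62, SD 1.53). Before scaling, these spots did not overlap either, in the same direction as the longer probe. Divided by the 75th percentile used for scaling (525.6 and 277.5 units), they do overlap. With its 2 marked spots, which lay at -5.06 and 7.30 units, the shorter probe overlapped between the arrays before scaling too. The software's total gene signal of miR-10b, which is on a scale of its own and is not the sum of these probe means, was 74.0 units (error 7.68) on the tumour-labelled array and 13.7 units (error 3.50) on the normal-labelled array.

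Before any scaling, the 22-base probe of miR-10b was 5.34-fold brighter on the tumour-labelled array (log2 ratio 2.42). The probes detected on both arrays were brighter there in general, by 1.89-fold at the 75th percentile (0.92 on the log2 scale). Divided by that percentile, the level of miR-10b was 0.194 on the tumour-labelled array and 0.0687 on the normal-labelled array. The scaled log2 ratio was 1.49 (spot SE 0.11), or 2.82-fold higher on the tumour-labelled array. In RNA of whole tissue, more cells that hold miR-10b on the tumour-labelled array and more miR-10b per cell cannot be told apart.

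Among the 85 miRNAs measured on both arrays, 7 had a higher ratio than miR-10b. With normexp and an offset of 50 it was 18 of the 85, and with no filter on dim probes 30 of all 350. The median of the 85 was -0.46 after scaling, with 32 above 0, and 0.46 without scaling. Ratios of at least 2-fold in the direction of miR-10b were found for 11 of them, or 12.9%, and 19, or 22.4%, were at least 2-fold lower. Without scaling these counts were 28 and 5, and miR-10b was among the higher ones both ways. The 3 miRNAs whose ratio was nearest to that of miR-10b over these 2 arrays were miR-30c (1.49), miR-150 (1.43) and miR-378 (1.85). The first 2 lay within 0.07 of miR-10b, less than the spot SE of 0.12 on either distance. miR-378, a member of the skeletal muscle list described below, lay 0.36 away, with a spot SE of 0.12.

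**Figure D2:**
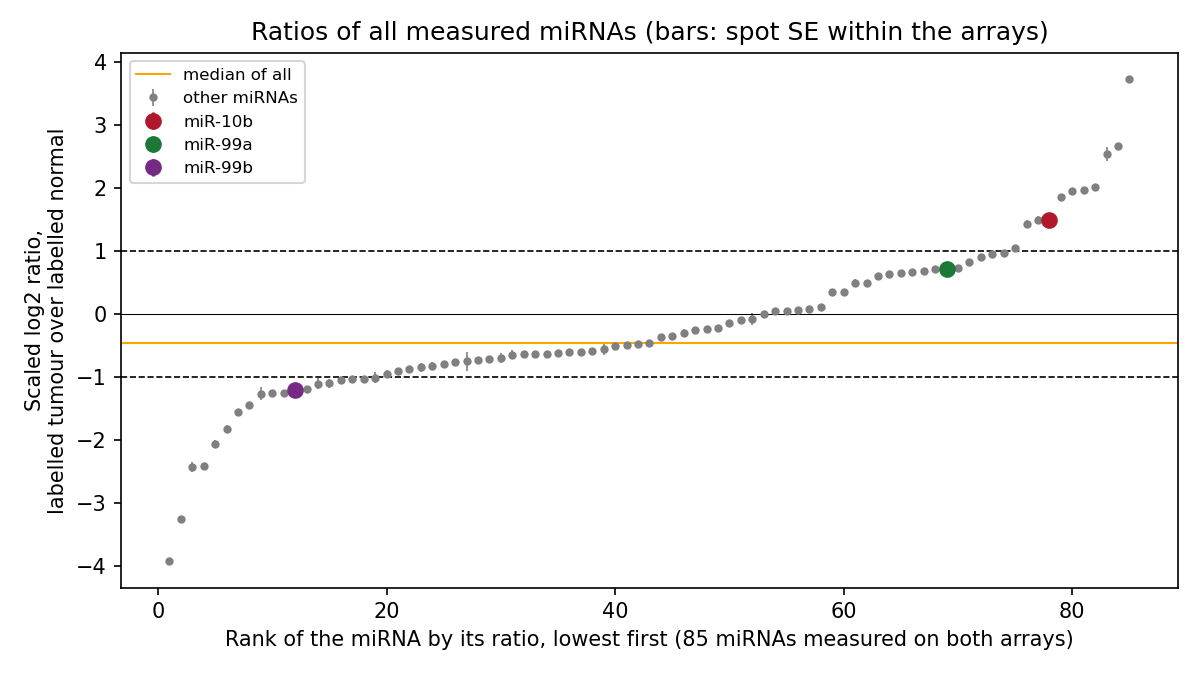
Scaled log2 ratio of each of the 85 miRNAs measured on both arrays, labelled tumour over labelled normal (y axis), in order of size (x axis). Bars are spot SEs within the arrays, dashed lines mark 2-fold and the orange line the median of -0.46; miR-10b stands at 1.49, miR-99a at 0.71 and miR-99b at -1.21.

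The size of the ratio of miR-10b moved with the processing. Its 22-base probe had a mean signal before subtraction of 152.6 units on the tumour-labelled array and 71.9 on the normal-labelled array. The fitted surface subtracted there was 50.8 and 52.8 units, so by that surface most of the measured light on the normal-labelled array was background. The local background beside the spots was lower, at 24.65 and 23.35 units. Normexp background correction started from this local background and not from the fitted surface. With its offset of 50 units, which is added on both arrays, it brought the ratio to 0.23, under 2-fold. With every probe kept and dim values floored, the 21-base probe entered at the floor of both arrays and the ratio was 0.29. The floors are unequal after scaling, 0.0347 on the tumour-labelled array and 0.0657 on the normal-labelled array. A probe floored on both arrays therefore pulls the ratio down by itself. With all spots required to be well above background, miR-10b was detected on the tumour-labelled array alone, at least 2.30-fold higher. A bound of this kind sets the bright signal against the higher of the probe's own signal and the dimmest detected probe on the other array.

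miR-10a-5p was not well above background, although its probes differ from those of miR-10b at only 1 aligned base. On its 22-base probe the 10 spots of the tumour-labelled array ran from 2.69 to 11.5 units (mean 6.36, SD 2.74). On the normal-labelled array they ran from -1.75 to 6.78 units (mean 3.55, SD 3.04). These spots overlapped. Of the 10 spots, 8 and 7 passed the software's weaker flag for a signal significantly above background. Among spots of all undetected probes 25.7% and 25.1% passed that flag, and among negative control spots 16.4% and 29.3% did. The mean of this probe was higher than those of 88.7% and 83.7% of undetected probes. Whether these low values are miR-10a-5p itself or miR-10b bound to a probe with 1 mismatch was not tested.

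The 21-base probe of miR-10a-5p had means of 3.14 units (SD 3.62) and -1.66 units (SD 2.08), with 3 and 0 of 10 spots passing the weaker flag. Before scaling, both probes of miR-10a-5p thus had the higher mean on the tumour-labelled array, as miR-10b did. Each mean lay within 1 SD of the mean of the negative control spots. That SD is the spread of single spots, marked ones included, and not of probe means. The spot SE of the mean of the 22-base probe was 0.87 and 0.96 units. No fold is given for miR-10a-5p, since neither array measured it. The deposited value table lists it at 6.30 and 1.25 units.

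miR-10a-3p, from the other arm of the miR-10a hairpin, gave no probe mean above 0. Its 4 probes, of 15 to 18 bases, had means from -4.45 to -2.40 units on the tumour-labelled array. On the normal-labelled array they ran from -5.61 to -3.98 units. On the normal-labelled array 2 spots, at 17.99 and 54.6 units, were well above background, and the software marked both as outliers among the 5 spots of their probe. The other spots of those probes were all below 0.

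The 3 miR-196 miRNAs were at background on both arrays. miR-196a, encoded between Hoxc10 and Hoxc9, had probe means of -1.97 and 0.13 units on the tumour-labelled array and of -1.59 and -0.49 on the normal-labelled array. miR-196b, of the Hoxa cluster, had means of -1.76 and 0.86 units and of -1.26 and -0.35. The 4 probes of miR-196c, of the Hoxb cluster, ran from -2.38 to 0.56 units and from -2.84 to 3.43. The highest of these was the 20-base probe of miR-196c on the normal-labelled array, with 5 spots from -1.94 to 7.93 units. The spots of each miR-196 probe overlapped between the arrays. The deposited table lists all 3 miR-196 miRNAs at its floor of 1 on both arrays. Without marked spots, 0 of 98 spots of the 5 undetected members on the tumour-labelled array and 0 of 93 on the normal-labelled array were well above background. Counting marked spots it was 0 and 4 of 100. Since neither array detected these 5 members, no fold between the arrays is given for them.

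The passenger strand miR-196a*, from the same hairpin as miR-196a, was also undetected by the software's flag, with total signals of -2.95 and -5.53 units. Of the let-7 family, let-7a was compared with the miR-196 miRNAs and shares a run of 7 bases, AGGUAGU, placed 1 base further from its 5′ end. All 8 let-7 family members on the array were measured, with detected probes from 35.2 to 2283 units on the tumour-labelled array and from 25.6 to 1152 on the normal-labelled array. The probes of miR-196 stayed near 0 on the same arrays, and binding of let-7 to them was not tested. The let-7 members had a median log2 ratio of 0.02 between -0.49 and 0.35, against -0.46 for all miRNAs measured.

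The closest relatives of miR-10 by sequence are miR-99a, miR-99b and miR-100, which are encoded outside the Hox clusters. Aligned without gaps, the miR-100 probes differ from the longer miR-10b probe at 3 of 18 and 3 of 19 bases. Those of miR-99b differ at 3 of 15 and 3 of 16, and those of miR-99a at 4 of 19 and 4 of 20. Over 21 aligned bases of the mature strands, miR-10b differs from miR-100 at 4 and from miR-99b at 5. miR-99b and miR-100 share the seed ACCCGUA. All 3 relatives were detected on the tumour-labelled array, and miR-99a and miR-99b on the normal-labelled array.

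miR-99a was measured by both of its probes. Its 20-base probe had spots from 214.5 to 248.3 units on the tumour-labelled array and from 65.9 to 78.9 on the normal-labelled array. Its scaled log2 ratio was 0.71 (spot SE 0.03), under 2-fold, and 1.63 without scaling. The difference between miR-10b and miR-99a does not depend on a common scaling factor: the log2 ratio of miR-10b was 0.79 higher (spot SE 0.11). That difference was 0.03 with normexp and an offset of 50. With every probe kept it turned to -0.42, since the floored probe of miR-10b, with its unequal floors, was averaged in.

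miR-99b was lower on the tumour-labelled array. Its 16-base probe had 10 unmarked spots from 18.7 to 31.8 units on the tumour-labelled array and 8 from 21.9 to 38.8 on the normal-labelled array. Before scaling these overlapped. Divided by the 75th percentile used for scaling (525.6 and 277.5 units), they did not. The scaled log2 ratio was -1.21 (spot SE 0.11), and it was -0.29 without scaling, under 2-fold. This ratio rests on the 16-base probe alone. The 15-base probe of miR-99b was detected on neither array, with means of 8.92 units (labelled tumour) and 13.65 units (labelled normal). miR-10b and miR-99b differed by 2.71 on the log2 scale (spot SE 0.15), which is 6.54-fold. Their difference stayed between 1.14 and 2.82 over the 17 alternatives that measured both. A ratio within an array shows that their ratios were unequal, not which of them differed between the samples.

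miR-100 was detected by the rule above on the tumour-labelled array alone, while the software's gene-level flag called it on both. Its 19-base probe ran from 75.02 to 88.3 units there and from 9.49 to 15.4 on the normal-labelled array, with no overlap before scaling. The share of all probes without overlap was not counted, so this cannot be called particular to miR-100. Averaged over both probes, it was at least 1.32-fold higher after scaling and at least 2.49-fold without it. The bound after scaling came from the 19-base probe, at least 2.37-fold alone, while the 18-base probe alone gave a bound under 1 and so no fold. Over the alternatives that gave a fold, the bound ran from 1.03 with all spots required to be well above background to 4.32 with at least 1 such spot. With normexp and an offset of 50 the bound fell below 1, and no fold is given for that setting.

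**Figure D3:**
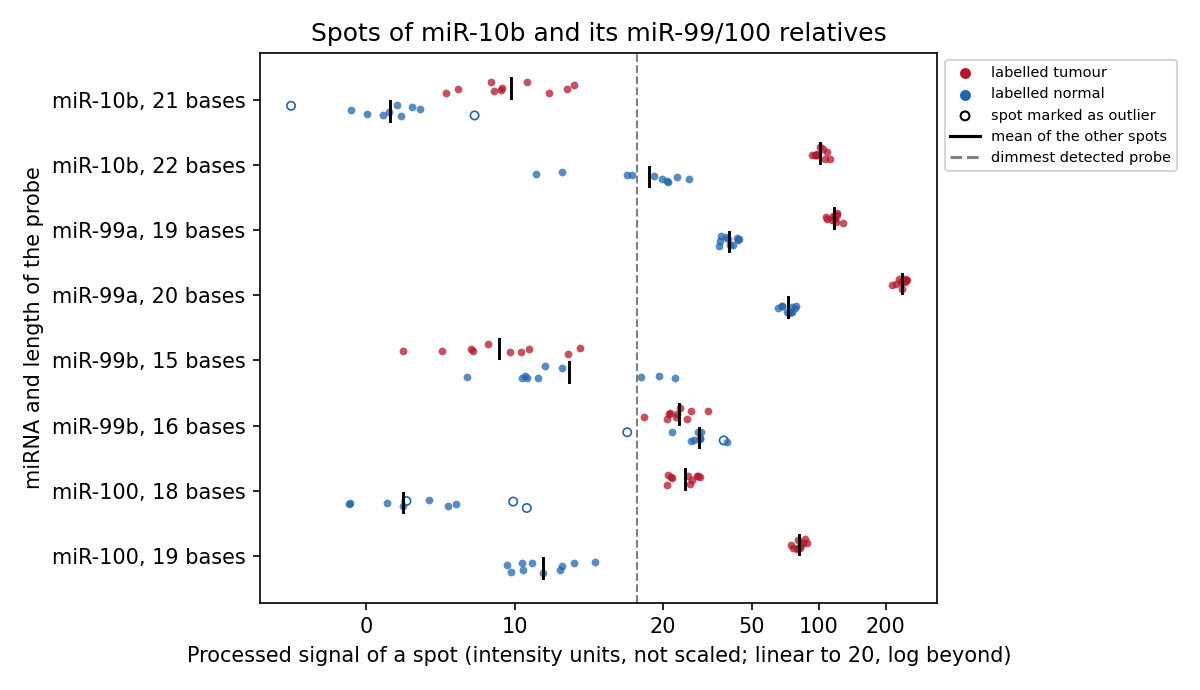
Processed signal of every spot (x axis, intensity units, linear up to 20 and log beyond) of the probes of miR-10b, miR-99a, miR-99b and miR-100 (y axis, with probe length) on both arrays. Ticks are means without marked spots (open points), and signals are not scaled. Without marked spots the unscaled signals of the arrays stand apart for miR-10b, miR-99a and miR-100, with the tumour-labelled array higher. They overlap for both probes of miR-99b, and a marked spot of the 21-base probe of miR-10b overlaps. The share of all probes whose unscaled spots stand apart was not counted.

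Markers of cell types moved between the arrays as well, and their part in the ratio of miR-10b was not tested. In the skeletal muscle list 5 of 7 miRNAs on the array were measured, all with ratios above 0 and a median log2 ratio of 2.53. The summed scaled level of the muscle list, taking the brightest probe of each miRNA, was 32.0 on the tumour-labelled array and 5.06 on the normal-labelled array. Its cardiac member miR-208 and miR-499 were detected on neither array. In the epithelium list 9 of 10 were measured, with a median of -0.90 and summed levels of 5.64 and 9.56. In the list of stroma and smooth muscle 4 of 5 were measured, with a median of -1.02 and sums of 2.16 and 2.74. Its member miR-143 was the exception at 0.82, the others measured lying below 0, and miR-145 was detected on neither array. miR-126, the endothelial marker, had a ratio of 0.68 and levels of 1.16 and 0.716.

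Among leukocyte miRNAs 4 of 5 were measured, with a median of -1.43 and sums of 0.666 and 1.498, and miR-142-5p was undetected. Its member miR-150 was the exception at 1.43, next to miR-10b. Of the red blood cell list miR-451 was measured at 1.04, with list sums of 0.280 and 0.133 and miR-144 undetected. Of 4 nerve miRNAs, miR-128 was detected on the tumour-labelled array, and 0 were detected on the normal-labelled array, with sums of 0.169 and 0.0600. Without scaling each of these ratios is larger by 0.92, which turns the median of the epithelium list to just above 0 and leaves those of stroma and leukocytes below it. The muscle and epithelial markers of tongue were thus present on both arrays.

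**Figure D4:**
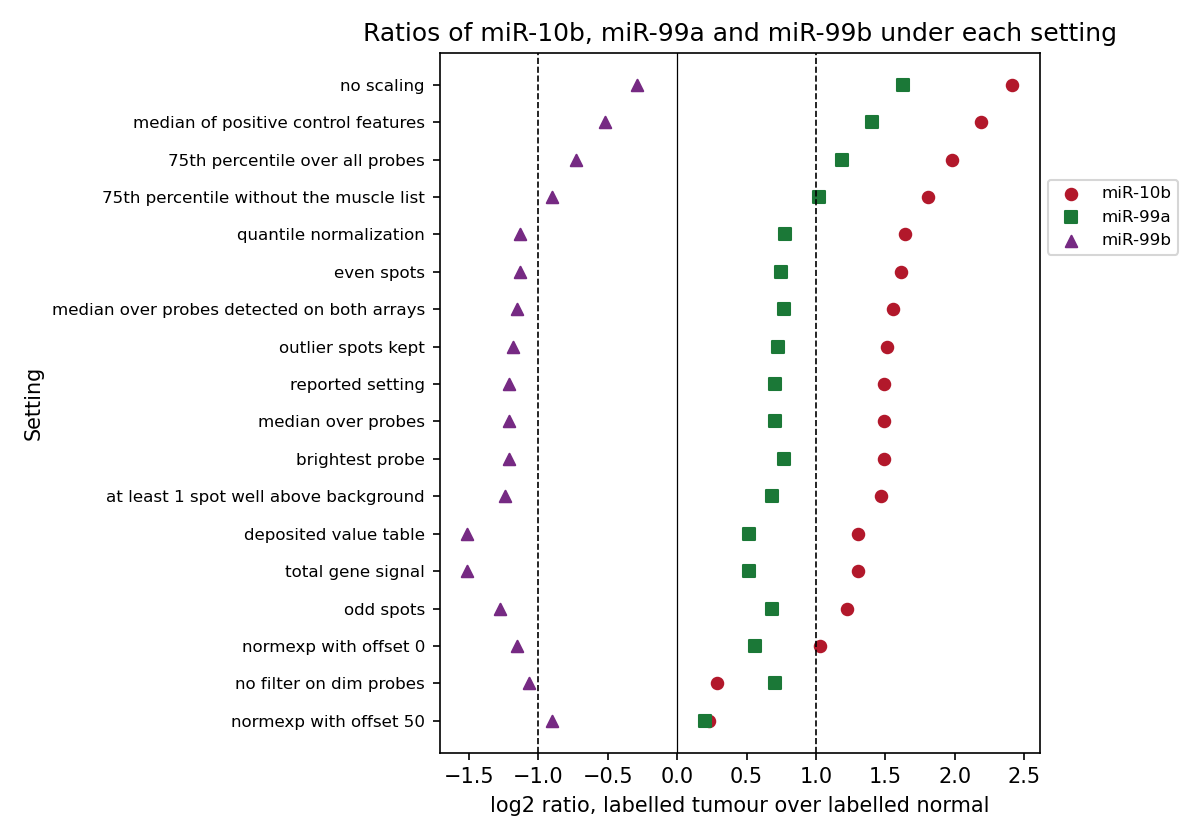
log2 ratio, labelled tumour over labelled normal (x axis), of miR-10b, miR-99a and miR-99b under the reported setting and the 17 alternatives that gave miR-10b a value (y axis). Dashed lines mark 2-fold; miR-10b lay above 0 under all of these, from 0.23 to 2.42, and at least 2-fold higher in 15, while miR-99b lay below 0 throughout.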

How the data were processed

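Per the file headers, the deposited intensity values come from version 10.5.1.1 of the Feature Extraction software, with spatial detrending on and no normalization between arrays. The deposited processed signal equalled the spot mean minus the fitted surface, within 0.0009 units. The deposited value table held the software's total gene signal, an intensity on a linear scale, for all 182 and 173 miRNAs at or above 1 (relative difference under 1e-05), with the others set to 1. Its column medians were 1.70 and 1.32.

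Spots marked as outliers (248 and 336 of 7000) were left out and the others averaged per probe. Scaling used the 75th percentile of the 140 probes that both arrays detected, which was 525.6 and 277.5 units; signals were then floored at the dimmest detected probe and converted to log2. For a miRNA, ratios of the probes that both arrays detected were averaged. The 2-fold threshold is a rule of size and no test. Precision is limited by having 1 array per group; detected probes had a median spot CV of 5.20% and 6.33%.

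Named are all members, miR-196a*, the miR-99 and miR-100 relatives and the 3 nearest ratios, besides cell type markers, of which miR-128, miR-145, miR-208 and others undetected are named by status. Members and lists were chosen with earlier results of these data known. The steps were also run on simulated data, with both arrays made from the normal-labelled one. Ratios there were centred on miRNAs known to be unchanged, which real data do not allow, so the scaling itself was not tested. Alternatives were other scalings, background corrections, filters on dim probes and summaries over spots and probes. R 4.3.3 with limma 3.58.1 ran normexp, and Python 3.11.15 the rest.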

Additional observations from a re-analysis of the deposited data

How the results depend on the processing

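Of 18 alternatives, 17 gave miR-10b a ratio, all above 0; 15 kept it at least 2-fold higher on the tumour-labelled array, and 11 left it within 1 spot SD (0.34) of 1.49. These tallies are no measure of stability: miR-10b is measured by 1 probe, so taking the brightest probe or the median over probes could not move it, and the total gene signal and the deposited table hold the same values (1.30 in both). Scaling moved it to 2.42 (none), 2.19 (positive control features) and 1.98 (75th percentile of all probes). Normexp moved it to 0.23 with an offset of 50 and to 1.03 with an offset of 0, the latter chosen after seeing the data. Without a filter on dim probes it was 0.29. Odd and even spots gave 1.22 and 1.61. The count of detected members was 1 on each array under every alternative but 1: with all spots required to be well above background it was 0 on the normal-labelled array.

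Over all miRNAs, the 11 higher and 19 lower became 28 and 5 without scaling, 23 and 7 with the percentile of all probes, 27 and 6 on control features, 18 and 8 without muscle miRNAs and 3 and 8 with normexp at an offset of 50. Only 1 member was measured, so the planned differences between members were not run, nor were bounds for members detected on 1 array. No paired analysis was possible because each group has 1 array. Signal near background on the normal-labelled array limits the precision of miR-10b there, and of the other 5 members on both arrays.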
